A study of Rattus norvegicus with 6 samples.

Results

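CpG islands are stretches of DNA that kept a high density of CpG dinucleotides. Most lie at gene starts, where they are usually free of methylation, and others lie inside genes or between them. Islands of that second kind can mark unannotated starts or regulatory elements, or carry stable methylation. The CpG sites described here are those flagged by the authors' annotation as lying in a CpG island and not in a promoter. They number 686 of the 32674 nuclear sites of the deposited table (2.1%). The annotation places 99 of them in exons (5 of which also carry an intron flag) and 84 in introns. The other 503 lie in no annotated promoter, exon or intron.

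Methylation was measured by reduced representation bisulfite sequencing (RRBS), which reads CpG-rich MspI restriction fragments and gives, at each CpG, the percentage of bisulfite-converted reads still showing C. The tissue was the dorsal root ganglion, which holds the cell bodies of sensory neurons with their glia, of adult male Sprague-Dawley rats (8 to 9 weeks of age, about 220 g). The 3 SNL libraries came from ganglia collected 3 weeks after spinal nerve ligation, a neuropathic pain model in which the L5 and L6 nerves of the left side are tied. The 3 Sham libraries were collected 3 weeks after an operation without ligation, done on the opposite side per the labels, so an SNL and a Sham library could come from 1 rat. Neither the number of rats behind a library nor the ganglia pooled in it is given in the sources used here. The p-values here reflect spread between libraries and not between rats, and part of it may be technical. Those for single sites and clusters also draw on the spread shared across all sites or clusters and on read depth. A ganglion is a mixture of cell types, so a change of level within a cell type and a change in the proportion of cell types cannot be told apart. The cell types were not checked against markers, since methylation of a marker gene is not its expression.

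Summed coverage over the listed CpG cytosines was 29420922 to 34293779 reads in the SNL libraries and 27247702 to 32243538 reads in the Sham libraries. Each of the 686 sites had at least 100 reads in every library, and the median over sites of the shallowest library was 191 reads. The sites lie on 21 chromosomes, 18 of them on X, and 174 transcripts hold the nearest annotated start. Sites no more than 500 bp apart were joined into 180 clusters, of which 125 held 3 or more sites and 28 held 1. The largest cluster had 21 sites. Neighbouring sites of a cluster can lie on the same reads and are not independent.

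Most of these sites were unmethylated, but less uniformly than island promoters. Mean methylation over the 6 libraries was under 5% at 498 of the 686 sites (72.6%), 20 to 80% at 38 (5.54%) and over 80% at 91 (13.3%). Among the 787 island promoter sites, 95.2% were under 5% and 1.65% were over 80%. The mean over sites was 13.7 points higher in islands away from promoters than in island promoters, and 13.4 to 14.1 points higher in each of the 6 libraries (exact two-sided sign-flip permutation test over libraries, p = 0.031, adjusted p = 0.031 over 3 class comparisons, the smallest value 6 libraries allow). It was 21.0 points below that of the 2111 shore sites away from promoters and 58.5 points below that of the 27490 sites outside islands, shores and promoters (same exact test, adjusted p = 0.031 for each).

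The median level was highest in exons and lowest outside annotated features, a description for which no test was run. Exonic island sites had a median of 17.8% (quartiles 3.08% and 91.6%), intronic ones 2.74% (1.18% and 15.6%) and those without a feature 2.01% (1.11% and 3.78%). Over 80% methylation was found at 35 of the 99 exonic sites (35.4%), 16 of the 84 intronic sites (19%) and 40 of the 503 sites without a feature (7.95%). By cluster, 10 of 27 exonic, 4 of 29 intronic and 7 of 124 clusters without a feature averaged over 80%. The locations also differ in their distance to annotated starts, whose part in this order was not tested. The median distance to the nearest start was 9.02 kb for exonic, 7.67 kb for intronic and 37.4 kb for sites without a feature. Of the last group 114 lay within 5 kb of a start and 149 beyond 100 kb, and 33.6% lay downstream of the named start, against 83.8% of exonic and 95.2% of intronic sites.

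**Figure D1:**
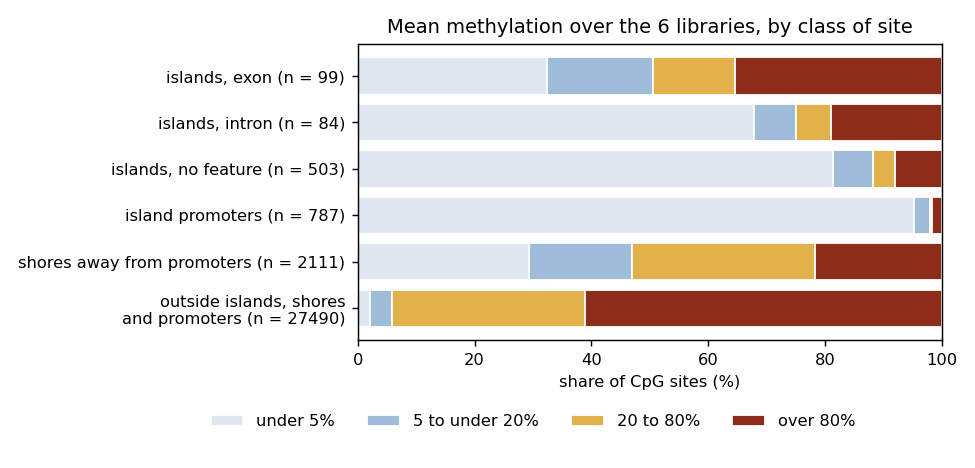
Share of CpG sites (x axis, percent of the class) in 4 ranges of mean methylation over the 6 libraries, by class of site (y axis). Exonic islands away from promoters have the largest share of sites over 80% among the island classes (35.4%), and island promoters the smallest (1.65%).

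Methylated exonic islands had their nearest start at genes of varied function. The highest cluster covers 7 CpGs in an exon of Map1b, which encodes a neuronal microtubule-associated protein (chromosome 2, positions 30426984 to 30427123, rn4, 81.3 kb from the named start). It averaged 98.8% ± 0.091 in SNL and 98.9% ± 0.151 in Sham (SD, n = 3). An exonic cluster whose nearest named start, 122.9 kb away, is that of Cbr4, a carbonyl reductase gene, followed at 97.8% ± 0.193 and 97.9% ± 1.44. It lies upstream of that start, so the exon is not one of that transcript. That of Adora2a, an adenosine receptor gene, stood at 96.1% ± 0.351 and 96.2% ± 0.367. None of these 3 clusters passed the test of SNL against Sham described below (adjusted p = 0.813, 0.941 and 0.895 for the summed cluster).

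Unmethylated exonic islands included 8 CpGs in Vgf, the precursor of neuropeptides induced by nerve growth factor, at 1.45% ± 0.228 in SNL and 1.77% ± 0.513 in Sham (chromosome 12, positions 20905039 to 20905087, 1.75 kb from the start). The clusters of Trhde, the enzyme that degrades thyrotropin-releasing hormone, and of Tnrc18 were also under 2% in both groups (1.96% and 1.71% in SNL, 1.89% and 1.77% in Sham). None of these clusters passed the test (adjusted p from 0.793 to 0.963).

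Intronic islands also held both low and high clusters. The 5 CpGs of Mtmr1, a phosphoinositide phosphatase gene, averaged 98.0% ± 0.468 in SNL and 98.0% ± 0.494 in Sham. Those of Leo1, a subunit of the Paf1 transcription elongation complex, stood at 97.9% ± 0.618 in SNL and 96.9% ± 1.31 in Sham. In Cdh13, which encodes T-cadherin, the cluster 482.8 kb from the start was at 96.1% ± 0.984 and 96.7% ± 0.484. These 3 were the most methylated intronic clusters in Sham. At the low end stood Smarca2, an ATPase of the SWI/SNF remodelling complex, at 1.73% ± 0.451 in SNL and 0.961% ± 0.155 in Sham. Thoc7, a subunit of the THO mRNA export complex, was at 1.72% ± 0.57 and 1.08% ± 0.298. Cacna1c, the pore subunit of an L-type calcium channel, was at 2.18% ± 0.611 and 1.24% ± 0.287. Among the intronic clusters with the most CpGs, Tfap2b, a transcription factor gene of the neural crest, had 1.66% in SNL and 1.45% in Sham, Irs1, an insulin receptor adaptor gene, 1.28% and 1.41%, and the kinase gene Stk35 1.45% and 1.32%. None of these clusters passed, with adjusted p of 0.486 or more.

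Islands without a feature were mostly unmethylated whatever the name of the nearest gene. The longest run of sites, 21 CpGs over 1215 bp, averaged 1.80% ± 0.044 in SNL and 1.71% ± 0.268 in Sham (chromosome 2, positions 186532164 to 186533379, 87.6 kb from the start of S100a11). The 12 CpGs nearest Sae1 stood at 1.23% and 1.59%, and the 11 nearest Fcgr2al1 at 4.13% and 5.0%. Methylated exceptions were 11 CpGs 255.5 kb from Lce1m (95.9% ± 0.621 and 95.7% ± 0.757), 7 CpGs 7.18 kb from Lin7b, a synaptic scaffold gene (98.4% ± 0.091 and 97.6% ± 0.38), and 7 CpGs nearest Magi1, a junction scaffold gene (95.6% and 95.0%). Among clusters of 3 or more CpGs without a feature, the lowest in Sham were those nearest Nr1h4, Kcnrg and Psmb3, at 1.07 to 1.10% in Sham and 1.19 to 1.83% in SNL. The lowest adjusted p among these 9 clusters was 0.335.

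Intermediate methylation was rare, and some places with it varied widely between libraries of the same group. The 38 sites at 20 to 80% had a median SD between libraries of 6.78 points in SNL and 4.89 points in Sham, against 0.671 and 0.625 points at the 498 sites under 5%. The spread differed by place. The SD of the cluster mean was 3.07 points in SNL and 3.06 points in Sham nearest Cux2, and 3.06 and 2.5 points in Cd9. An exonic cluster of 8 CpGs whose nearest start is that of Vom2r30, a vomeronasal receptor gene, averaged 56.7%, 41.6% and 32.3% in SNL 1 to 3 and 30.3%, 38.2% and 33.9% in Sham 1 to 3 (chromosome 1, positions 70431991 to 70432064, 515 to 4221 reads). SNL 1 was the highest library, and SNL 3 lay between the Sham libraries. An intronic site nearest Armc8, read 1846 times or more in each library, gave 51.5%, 40.5% and 28.4% in SNL and 30.1%, 40.4% and 37.6% in Sham. Over the 53 sites with more than 1000 reads in every library, the mean was 13.8%, 11.3% and 8.69% in SNL 1 to 3 and 8.35%, 10.7% and 9.51% in Sham 1 to 3. Over the other 633 sites it was 17.7 to 18.1% in SNL and 17.7 to 17.9% in Sham. The deeply read places were not alike. The 8 CpGs nearest the transcript NM_030836 (2095 reads or more) had 28.5%, 24.3% and 13.8% in SNL 1 to 3. In Sham 1 to 3 they had 13%, 23% and 18.2%. The cluster nearest Rcc1l (2052 reads or more) stayed at 1.27 to 1.55% in SNL and 1.19 to 1.48% in Sham. That nearest Pdia4 (2639 reads or more) stayed at 9.76 to 10.6% and 10.1 to 10.8%. What sets the varying places apart was not tested. A cluster of 7 CpGs on X nearest the olfactory receptor gene Or7r1 lay between 45.3% and 58.8% in SNL and between 50.4% and 62.3% in Sham, so the groups overlapped. The 5 exonic CpGs of Sema6c, a semaphorin, were at 42.0% ± 6.52 and 38.1% ± 3.47 (adjusted p = 0.606).

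Over all 686 sites no difference between SNL and Sham was detected. Their mean was 17.8%, 17.5% and 17.0% in SNL 1 to 3 and 16.9%, 17.4% and 17.2% in Sham 1 to 3. The difference was 0.27 points (exact two-sided permutation p = 0.4, adjusted p = 0.533 over 4 values), and the groups overlapped. It was 0.099 points without SNL 1, 0.17 points without Sham 1, 0.47 points without SNL 3 and 1.43 points over pooled reads. Exonic sites had means of 41.8% ± 1.16 in SNL, against 40.3% ± 0.31 in Sham (SD, n = 3), and differed by 1.49 points without overlap. This is the smallest exact p that 3 libraries against 3 allow (exact permutation p = 0.1, adjusted p = 0.2). Without the Vom2r30 cluster the exonic difference was 0.80 points (exact permutation p = 0.2), without the Shh and Vom2r30 clusters 0.50 points (exact permutation p = 0.3), and without SNL 1 0.83 points. Over pooled reads, where deep sites weigh more, it was 3.99 points (exact permutation p = 0.4). Intronic sites averaged 23.0% ± 0.135 and 23.5% ± 0.123, a difference of -0.44 points without overlap (exact permutation p = 0.1, adjusted p = 0.2) that turned to 0.29 points over sites with 200 reads or more, which leaves out the 4 Cd9 sites. Sites without a feature averaged 11.7% and 11.6% (exact permutation p = 0.6).

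Sites outside islands, shores and promoters averaged 75.3% ± 0.881 in SNL and 76.4% ± 0.472 in Sham, a difference of -1.06 points (exact permutation p = 0.2). The difference between SNL and Sham was 1.33 points more positive in islands away from promoters than in those sites, and 0.56 points more positive than in shores (exact permutation p = 0.1 and adjusted p = 0.15 for each), which is the smallest p the design allows. Against island promoters it was 0.15 points more positive (exact permutation p = 0.5), and -0.0063 points without SNL 1.

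**Figure D2:**
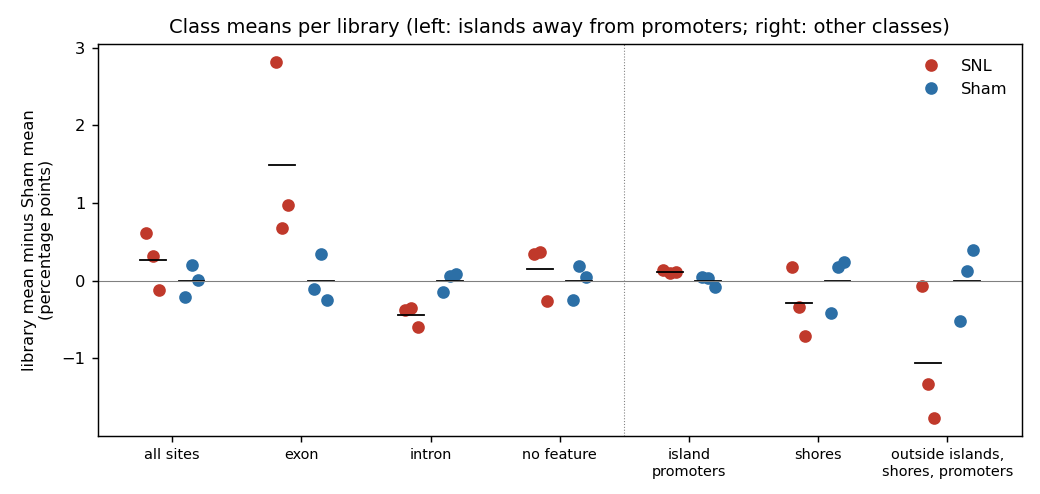
Mean methylation of each library minus the Sham mean of the class (y axis, percentage points) for islands away from promoters, whole and by location (left), and for 3 other classes (right). Points are libraries (SNL left of Sham in each pair) and bars are group means. Exonic SNL libraries lie above the Sham libraries and SNL 1 stands highest, intronic SNL libraries lie below, and the whole set overlaps.

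For single sites, methylated and unmethylated reads were fitted by logistic regression on group, with the spread between libraries moderated across all 32674 sites and p-values adjusted over all of them (Benjamini-Hochberg, threshold 0.05). Of the 686 sites 8 passed (1.17%), against 1.42% of all annotated sites. Of these, 4 were higher after SNL (0.583% of the sites, against 0.181% of all annotated sites) and 4 were lower (0.583%, against 1.24%). They fell on 4 places, namely 3 CpGs in an exon of Shh, 3 in an intron of Cd9, 1 in an exon of Pou3f1 and 1 without a feature nearest Copg2. With 1 offset per library, 10 of the 686 sites were higher (1.46%, against 0.575% of all annotated sites in that fit) and 4 lower (0.583%, against 0.698%), and the 6 added sites lie in the Vom2r30 cluster. The count was 4 without Sham 2 (0.583%, against 0.768% of all annotated sites in that fit) and 4 without Sham 3 (0.583%, against 0.395%). Without SNL 3 it was 18 (2.62%, against 0.933%). By location 4 of 99 exonic sites, 3 of 84 intronic sites and 1 of 503 sites without a feature passed. In 72 of the 686 sites (10.5%) the groups did not overlap, against 17.8% of all annotated sites. SNL was higher at 47 of these 72 (4.64% of all annotated sites were higher in this way) and lower at 25 (13.2% of all were lower). A difference of 10 points or more, in either direction, was found at 7 of the 686 sites, against 1.92% of all annotated sites. At an unadjusted p under 0.05 stood 51 of the 686 sites (7.43%), against 13.1% of all. All 8 calls rest on the moderated logistic test: the same F test without moderation called 0 of all 32674 annotated sites. Before adjustment it had 16 of the 686 (2.33%), against 6.02% of all. Run on logits, limma also called 0 of all annotated sites, with 77 of the 686 (11.2%) before adjustment, against 10.7% of all.

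**Figure D3:**
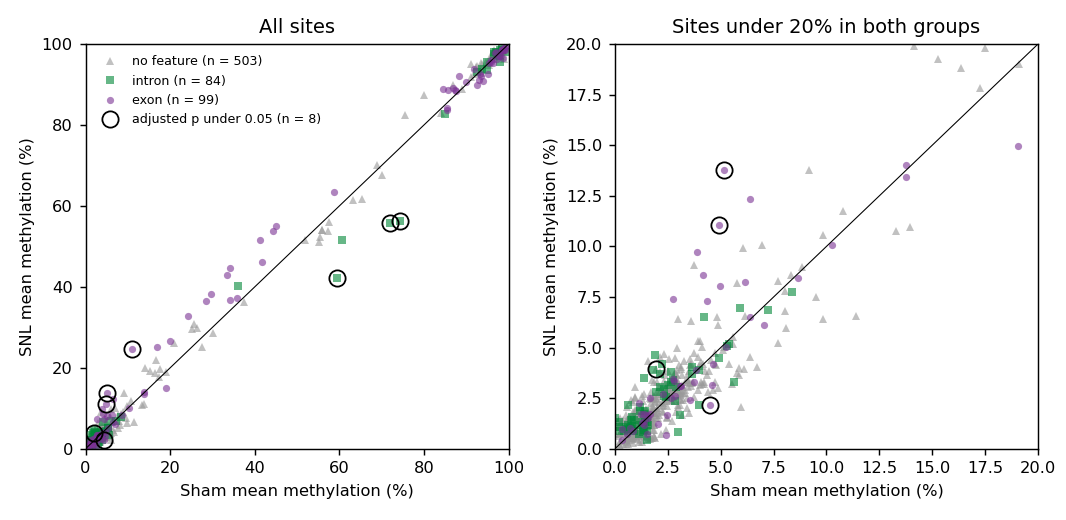
Mean methylation of each of the 686 sites in SNL (y axis, percent) against Sham (x axis, percent), over the whole range (left) and under 20% (right). Open circles mark the 8 sites with an adjusted p under 0.05, and most sites lie close to the line of equal levels (595 of 686 within 2 points).

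The largest gain was in Shh, which encodes the secreted ligand Sonic hedgehog, a morphogen of nervous system development. The 3 CpGs span 12 bp of an exon, 9.14 kb from the named start (chromosome 4, positions 2209638, 2209646 and 2209650). Methylation at the middle CpG was 23.7%, 24.9% and 25.4% in SNL 1 to 3 and 10.8%, 12.1% and 10.2% in Sham 1 to 3, 13.6 points ± 1.1 higher (SE, adjusted p = 2.47e-06, at least 776 reads per library). The lowest SNL library stood above the highest Sham library. The first CpG stood at 10.7%, 10.1% and 12.4% in SNL and 5.18%, 4.29% and 5.22% in Sham (adjusted p = 0.00056), and the last at 13.8%, 11.8% and 15.7% against 5.93%, 4.26% and 5.20% in Sham (adjusted p = 0.000132). All 3 stayed called without any of the 6 libraries in turn. A further CpG 104 bp away, with as few as 57 reads, gave 34.6% ± 9.05 in SNL and 28.5% ± 7.66 in Sham and did not pass when all sites with 20 reads or more were tested (adjusted p = 0.831).

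The largest loss was in an intron of Cd9, which encodes a tetraspanin of the cell surface (chromosome 4, positions 162292109, 162292120, 162292123 and 162292139, 20.8 kb from the start). The second CpG had 42.6%, 44.0% and 40.3% in SNL and 59.3%, 61.0% and 57.8% in Sham, so that SNL minus Sham was -17.1 points ± 3.25 (SE, adjusted p = 0.0137, 154 to 192 reads). The first had 60.2%, 59.9% and 48.7% in SNL and 69.2%, 78.0% and 75.5% in Sham (adjusted p = 0.0247), and the third 56.2%, 58.2% and 53.2% against 68.7%, 75% and 72.3% in Sham (adjusted p = 0.0212). At the fourth, the values were 51.7%, 53.3% and 50% in SNL and 58.2%, 61.3% and 62% in Sham (adjusted p = 0.232), also without overlap. Each of the 3 calls was lost without SNL 3, Sham 2 or Sham 3 (adjusted p from 0.0502 to 0.14). Summed over the 4 CpGs, which share reads, the cluster was at 51.5% ± 3.06 and 66.5% ± 2.5 (adjusted p = 0.00275) and was called in all 6 fits that leave out a library.

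The remaining calls were changes of about 2 points at sites under 5%. Pou3f1 encodes a POU homeodomain factor that promyelinating Schwann cells use to start myelination. Its exonic cluster of 8 CpGs, 1.45 kb from the start (chromosome 5, positions 143982979 to 143983026), held 1 called site, at 2.10%, 2.02% and 2.37% in SNL and 4.15%, 4.48% and 4.8% in Sham (position 143982982, -2.31 points ± 0.512, SE, adjusted p = 0.0282, 782 reads or more). The call was lost without each of the 6 libraries (adjusted p from 0.0514 to 0.14). The CpG at 143982993 had 3.49%, 2.31% and 3.69% in SNL and 4.54%, 4.73% and 4.55% in Sham (adjusted p = 0.286), and the cluster as a sum did not pass (2.68% ± 0.475 and 3.26% ± 0.337, adjusted p = 0.326).

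The site nearest Copg2, a coatomer subunit gene that lies next to the imprinted gene Mest in the RefSeq gene order, is 168.3 kb from the start and in no annotated feature (chromosome 4, position 57790015). It had 4.47%, 3.43% and 3.94% in SNL and 1.82%, 2.11% and 1.86% in Sham (2.02 points ± 0.339, SE, adjusted p = 0.0035, 1319 to 3309 reads). The call held without any of the 6 libraries in turn. Its neighbour 30 bp on gave 4.68%, 3.56% and 5.32% in SNL and 3.51%, 4.84% and 3.43% in Sham, with overlap, and the other CpG of the cluster was at 0.483% or less in all libraries.

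**Figure D4:**
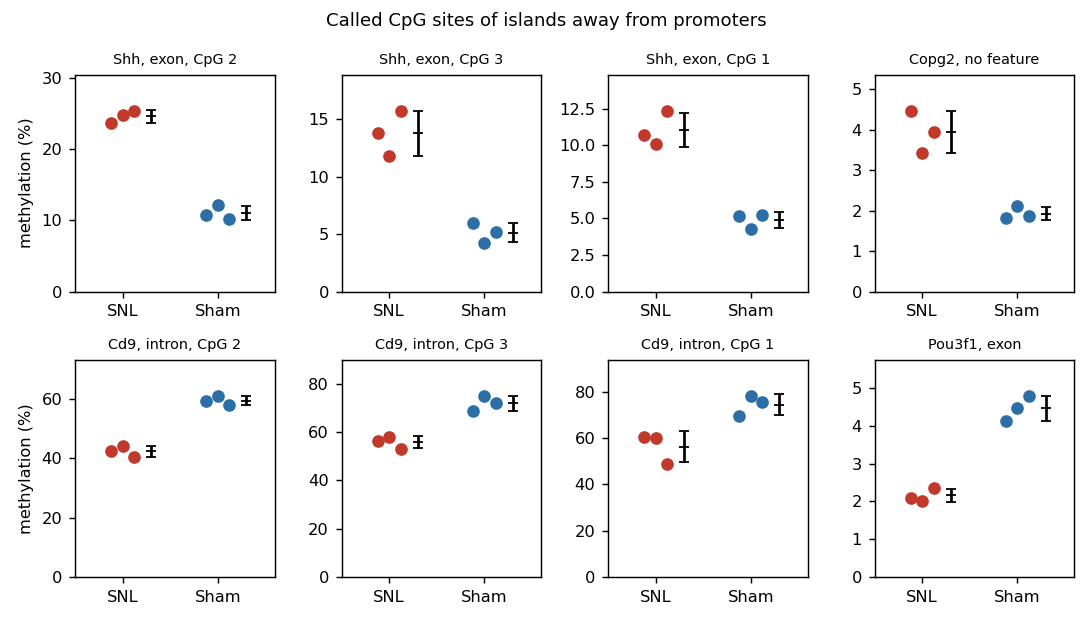
Methylation (y axis, percent, scaled per panel from 0) of the 8 called sites in the 3 SNL libraries (left in each panel) and the 3 Sham libraries (right). Points are libraries and bars are the mean ± SD. The groups do not overlap in any panel, and the Copg2 and Pou3f1 changes are about 2 points.

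When reads were summed over each cluster, 3 of the 180 clusters passed (1.67%), against 1.85% of all 18846 clusters made in the same way. These were Shh (adjusted p = 3.97e-06), Cd9 and Fosb, and 14 of the 180 (7.78%) had an unadjusted p under 0.05, against 14.9% of all clusters. Fosb encodes a subunit of the AP-1 transcription factor. Its 6 exonic CpGs span 36 bp, 4.9 kb from the named start (chromosome 1, positions 78668577 to 78668613, 190 to 242 reads). Their mean was 7.86%, 9.39% and 9.45% in SNL and 4.62%, 4.54% and 4.10% in Sham, a rise of 4.48 points (adjusted p = 0.00368). The cluster stayed called without any of the 6 libraries in turn, and it was singled out after its values were seen. SNL was above Sham at all 6 CpGs, without overlap at 4, while no single CpG passed (adjusted p from 0.0896 to 0.498). The 6 CpGs lie on the same reads, so the sum counts a read up to 6 times, and with the deepest CpG of each cluster only, Fosb was not called and Copg2 was (adjusted p = 0.00269). A q-value under 0.05 in the authors' deposited table was held by 11 of the 686 sites (1.6%), against 4.54% of all sites, among them 2 of these Fosb CpGs (q = 0.00223 and 0.00495).

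**Figure D5:**
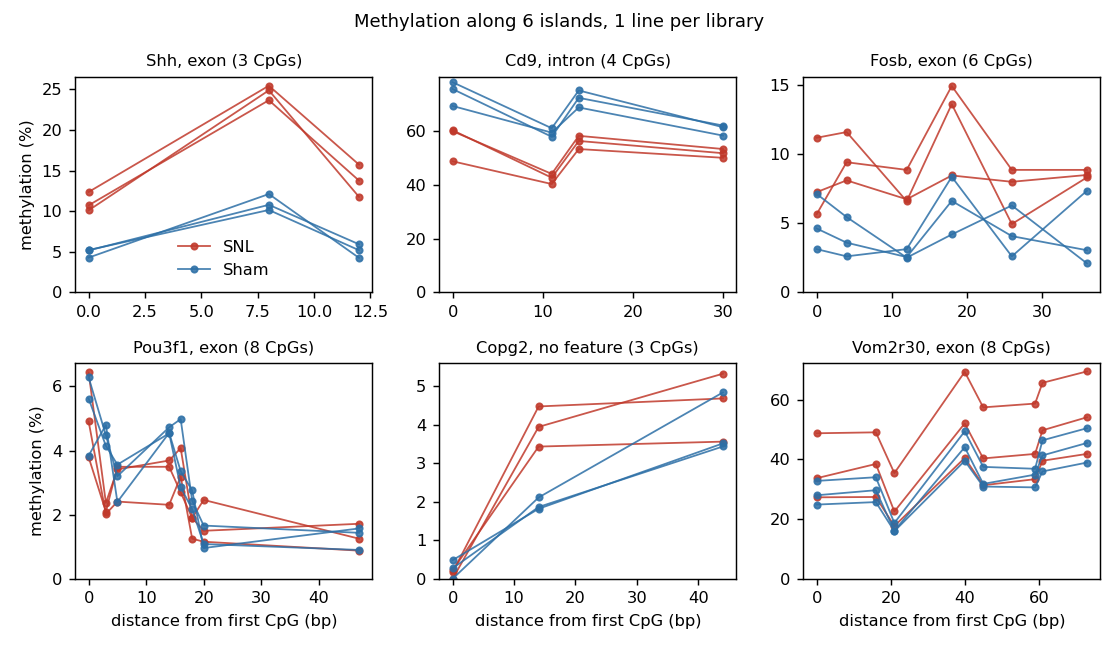
Methylation (y axis, percent, scaled per panel from 0) along 6 clusters against the distance from the first CpG (x axis, bp), with 1 line per library. SNL lines lie above Sham lines across Shh and below across Cd9, they separate partly in Fosb, Pou3f1 and Copg2 differ mainly at 1 CpG, and in Vom2r30 1 SNL library stands above the other 5.

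Other sites, taken as the 2 with the largest difference in each direction within each location, did not pass. The 4 CpGs without a feature nearest Grn, the progranulin gene, lie 8.23 kb from its start. They averaged 90.9%, 90.7% and 88.5% in SNL and 85.8%, 84.8% and 84.6% in Sham (4.97 points, adjusted p = 0.0578 for the sum, and 0.0232 with 1 offset per library). The groups did not overlap. The Vom2r30 cluster differed by 9.39 points (adjusted p = 0.17), with the spread between libraries given above. Card10, a signalling scaffold gene, had an exonic site at 15% ± 1.66 in SNL and 19% ± 2.37 in Sham (adjusted p = 0.567). The exonic cluster of Evpl, which encodes envoplakin, was at 93.8% ± 0.845 and 95.4% ± 1.01 (adjusted p = 0.326). On chromosome 2, a site in no annotated feature had its nearest start at the transcript NM_030836 (listed distance -1120.8 kb). This site had 10.7%, 3.67% and 5.35% in SNL and 4.05%, 2.94% and 27.1% in Sham, so 1 Sham library set its difference.

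The lists of genes were read as descriptions of the nearest named start, and lists this short against shares of 1.17% called among the 686 sites and 1.42% among all annotated sites give few or no calls to compare. Of 31 sites nearest 10 homeobox genes (Cux2, Dbx1, Dlx2, Gsx2, Hoxc11, Nkx2-2, Nkx2-3, Pou3f1, Uncx and Vax2), 19 were under 5% and 1 was called, the Pou3f1 site, which was lower. Uncx, a homeobox factor gene of the axial skeleton, stood at 2.71% ± 0.369 in SNL and 1.81% ± 0.469 in Sham, and Nkx2-2, of the ventral neural tube, at 1.13% ± 0.212 and 0.298% ± 0.312 (adjusted p = 0.457 and 0.365). Of 37 sites nearest 10 other developmental transcription factor genes, 32 were under 5% and 0 were called. At an unadjusted p under 0.05 in the same test stood 2 of them, against 7.43% of the 686 sites and 13.1% of all annotated sites. The 4 CpGs upstream of Gata6 stood at 12.2% ± 0.623 in SNL and 9.33% ± 1.41 in Sham (adjusted p = 0.163), those of Pax7 at 2.99% and 2.07%, and those nearest Sox6 at 2.21% and 1.87%. Among 10 sites nearest Hedgehog, Wnt, BMP and FGF genes (Bmp3, Fzd2, Shh and Spry2), the 3 Shh sites were called, all higher. Fzd2, a Wnt receptor gene, was at 3.99% and 3.84% and Spry2, an inhibitor of FGF signalling, at 1.53% and 1.64%. Shh was the gene of this list with calls, and it was already known to change when the lists were drawn up. The median difference of these 3 lists was -0.12, 0.25 and 0.60 points, against 0.09 points over the 686 sites and -0.55 points over all annotated sites.

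Of 18 sites nearest 5 axon guidance and adhesion genes and 12 sites nearest 4 genes of the ion channel list, 0 were called. Also 0 had an unadjusted p under 0.05 in the same test. With 1.42% of all annotated sites called and 13.1% at that unadjusted p, lists this short give few or no calls to compare. They include sites in no annotated feature nearest the teneurin gene Tenm3 (1.59% in SNL and 1.2% in Sham). Exonic sites nearest the channel gene Trpc7 lie upstream of its start, at a listed distance of -448.7 kb (89.3% ± 3.33 and 88.3% ± 0.556). The list of Schwann cell and glial genes was represented by Pou3f1 and Shh alone, with 11 sites and the 4 calls given above, against 1.42% of all annotated sites. Shh, already known to change when the lists were drawn up, holds 3 of these calls, so the count says nothing about glial genes. No site of these islands had its nearest start at a gene of the lists for neurotransmitter receptors, imprinted genes, sensory neuron identity or injury and regeneration. The lists are not complete, and Adora2a, Vgf, Fosb and Copg2, named above, are in none of them. This absence therefore describes the lists and not whole categories of genes.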

How the data were processed

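Per the submitters' processing notes, the authors aligned with Bismark 0.18.1 and Bowtie2, used methylKit 1.3.3 and worked on the rat assembly rn4. A protocol in the labels mentions a human assembly instead. Positions are given as rn4. In the deposited library files, coverage is a read count per cytosine, listed with the percent of C and of T per the file headers. The deposited series table holds percent methylation per library with the authors' q-value, p-value and difference score in points, besides annotation flags and distances. No source used here gives the settings of the authors' test or the origin of the annotation. Methylated counts were recovered as coverage times percent and came out whole.

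The Pearson overdispersion of the logistic fit (4 residual degrees of freedom) was moderated by squeezeVar of limma, with a floor of 1, and a two-sided F test followed. Sites without measurable spread took no part in the prior. That choice was made after the calls under both versions had been seen, and it brought the count over all annotated sites to that of earlier work on these data (464, against 415 with those sites kept). The same 8 sites were called either way, and the counts that did depend on it are given in the closing section. The test was tried on simulated data. After a first simulation recovered no changes, the simulated spread between libraries was lowered to a fixed setting, which the simulation did not estimate from these data. At that setting the share of false calls among the simulated calls was above the threshold of 0.05, so an adjusted p under 0.05 may understate the false calls here. Differences are means of library percentages, SNL minus Sham. Means over locations and classes were compared by exact permutation over 20 arrangements. Gene names are the nearest start, matched by accession to a RefSeq table of GRCr8, used for names and gene order only (164 of 174 transcripts, 653 of 686 sites). The files do not delimit islands, so clusters stand in for them, and 3 CpGs are listed at both of their positions. DNA sequence was not used here.

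Named are all called sites, the 4 clusters with the most positions per location, the 3 with the highest and lowest Sham level among clusters of 3 or more, the 2 largest differences per direction, and up to 3 genes per list with the lowest p. Fosb, the deeply read sites and the genes plotted as profiles were picked after their values were seen. The sites, gene lists and tests were chosen with earlier results of these data known. Alternatives were other scalings, tests, coverage minimums and cluster rules, a replicate block and leaving out each library. Versions were R 4.3.3 with limma 3.58.1, and Python 3.11.15 with matplotlib 3.10.9, numpy 2.4.6 and pandas 2.3.3.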

Additional observations from a re-analysis of the deposited data

How the results depend on the processing

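The count of called sites among the 686 was 8 and became 14 with 1 offset per library (10 higher and 4 lower, against 4 and 4), 5 of the 333 tested at 200 reads or more (1.5%, against 1.77% of all 13554), 20 when all 210270 sites with 20 reads or more were tested (2.92%, against 0.568%), and 0 both without moderation and with limma, which called 0 of all annotated sites too. The sites added by offsets were 6 of the Vom2r30 cluster, and those added by the wider test were in the Vom2r30 cluster and nearest NM_030836. Without each library in turn the count ranged from 4 (without Sham 2 or Sham 3) to 18 (without SNL 3, where 4 of the 8 were shared). The share called among all annotated sites ranged from 0.395% without Sham 3 to 1.6% without SNL 1, and was 0.933% without SNL 3. Leaving out sites over 1000 reads, chosen after seeing the data, gave 7 called sites among the members. The alternatives that keep sites without spread in the prior were also added after seeing the data. They gave 8 called sites (all shared, 1.17%, against 1.27% of all annotated sites) and 3 clusters (1.67%, against 1.85% of all clusters). With the replicate block they gave 3 sites (0.437%, against 0.349%). Among all sites with 20 reads or more they gave 0 of the 686, where 1 site of 210270 was called in place of 1195. In that fit 39 of the 686 (5.69%) had an unadjusted p under 0.05 in the logistic test, against 5.77% of all. Called clusters numbered 3 (1.67%, against 1.85% of all clusters), and 5 with library offsets (2.78%, against 1.7%). Without moderation 0 of all 18846 clusters were called, and 8 of the 180 (4.44%) had an unadjusted p under 0.05 in the F test, against 8.18% of all.

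The intronic difference reversed to 0.40 points over pooled reads and 0.29 points at 200 reads, and was -0.14 points with 1 value per cluster. The difference without a feature was 0.15 points, and 0.67 points over pooled reads and 0.029 to 0.36 points without each library. The level difference from island promoters, shores and other sites ranged from 13.6 to 13.8, -21.1 to -20.9 and -58.8 to -58.3 points without each library, where 5 libraries allow no p under 0.0625. The SNL minus Sham difference against island promoters ranged from -0.0063 to 0.35 points without each library.

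Same-numbered libraries did not deviate together more than differently numbered ones. Their correlations over all sites were -0.055, 0.256 and -0.135, against -0.293 to 0.341 for the others, so the numbers were not taken as pairs. These correlations cannot settle whether an SNL and a Sham library came from the same rat. With a replicate block 8 of the 686 sites were called (1.17%, against 1.03% of all annotated sites), 7 of them shared. In that fit 3 of the clusters were called (1.67%, against 1.09% of all clusters). Pou3f1 was lost (adjusted p = 0.055) and 1 Vom2r30 site was gained. At 100 reads, changes of a few points at sites near 0% or 100% could be missed.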
